A study of Mus musculus with 32 samples.

Results

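The core circadian clock genes of mouse liver are described here one by one: Arntl, Npas2 and Clock, which encode transcriptional activators, Per1, Per2, Per3 and Cry1, which encode their repressors, Nr1d1 and Nr1d2, which encode nuclear receptors, and Dbp, which encodes an output transcription factor. The members were the non-control probes whose gene name on the array was one of these 10 symbols, 13 probes of 55681. They were chosen by their measured levels across the 8 groups of these same livers, so their levels and differences are given as a description, with no test. Of the 10 genes, 8 passed the filter on dim probes and were among the 21012 genes fitted together. Npas2 was well above background on 8 of 32 arrays and Cry1 on 1 of 32, and neither passed.

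Livers came from male C57/BL6 mice, 8 weeks old when the diets began, with no transgene or deletion named. The mice ate a chow diet (C) or a methionine and choline-deficient diet (MCD), which gives NASH-like liver damage, for 3 weeks, and received either saline (groups C and MCD) or Fc-GLP-1, an agonist of the GLP-1 receptor fused to an antibody Fc part, for the last 2 weeks (groups C+Fc-GLP-1 on chow, M+Fc-GLP-1 on MCD). Liver was taken at a 70% partial hepatectomy (PH), here called before PH, or 2 weeks after it with diet and treatment continued, which gave 8 groups of 4 livers, each hybridised to 1 one-colour array. Some labels describe the agent as acting on both the glucagon receptor and that of GLP-1, with a dose of 4.4 mg per kg per day. The methods set livers after PH against the tissue cut out of that group at surgery, the labels do not tie single livers across the operation, and the livers after PH are those of mice that survived it. The hour at which each liver was removed, on which the level of a clock gene depends, is not given either, so hour and group cannot be told apart.

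The liver clock is a loop of transcription and delayed repression. BMAL1, the product of Arntl, pairs with CLOCK or NPAS2 and activates genes that carry E-boxes, among them the Per and Cry genes, Nr1d1, Nr1d2 and Dbp, and the PER and CRY proteins then repress that activation. The nuclear receptors REV-ERB alpha and beta, the products of Nr1d1 and Nr1d2, repress Arntl and Npas2 through ROR elements. DBP and its relatives TEF and HLF activate genes that carry D-boxes, which NFIL3 opposes. In mouse liver Arntl and Npas2 peak many hours away from Dbp and the Per genes, and feeding time, glucocorticoids and body temperature can all shift the loop.

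RefSeq promoter windows of GRCm38.p6, each running from 250 bases before to 50 bases after a transcription start, were found for 9 of the 10 members, 13 windows in all, and were searched on both strands for the letters of the elements named above. Parts of 4 windows are shown because they hold letters of the elements through which the loop is known to run. Capitals mark a match, and bases that lie inside the same gene's RefSeq record because another start lies farther upstream were left out for Per3 and Ciart. Ciart, no member, encodes a further repressor of the loop and is shown for comparison.
Per1, chr11:69098699-69098948, plus strand: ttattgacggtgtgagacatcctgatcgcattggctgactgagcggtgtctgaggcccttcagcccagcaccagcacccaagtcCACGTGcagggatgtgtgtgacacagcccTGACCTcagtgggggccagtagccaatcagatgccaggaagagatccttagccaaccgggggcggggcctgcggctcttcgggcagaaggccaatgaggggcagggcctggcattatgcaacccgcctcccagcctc
Per3, chr4:151044708-151044915, minus strand: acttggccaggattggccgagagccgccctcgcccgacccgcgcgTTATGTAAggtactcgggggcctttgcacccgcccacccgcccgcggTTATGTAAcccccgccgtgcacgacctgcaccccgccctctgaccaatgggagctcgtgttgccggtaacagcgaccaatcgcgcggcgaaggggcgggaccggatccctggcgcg
Nr1d1, chr11:98775378-98775627, minus strand: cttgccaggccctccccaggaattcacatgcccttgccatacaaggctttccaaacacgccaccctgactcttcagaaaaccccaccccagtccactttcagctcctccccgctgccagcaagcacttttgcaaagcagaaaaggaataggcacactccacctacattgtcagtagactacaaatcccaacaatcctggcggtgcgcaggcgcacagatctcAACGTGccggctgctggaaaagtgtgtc
Ciart, chr3:95882258-95882478, minus strand: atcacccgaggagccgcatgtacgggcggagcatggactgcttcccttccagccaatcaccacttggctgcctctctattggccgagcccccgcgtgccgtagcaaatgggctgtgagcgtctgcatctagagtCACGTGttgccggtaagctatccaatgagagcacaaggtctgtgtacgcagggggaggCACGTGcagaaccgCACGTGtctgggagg

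The Per1 window lies inside its gene record, downstream of an outer start, and the other 3 lie outside theirs. Counted from the start, with the base before it as -1, the Per1 window held the E-box CACGTG at -166 to -161. It also held AGGTCA, the core letters of a ROR element, on the minus strand at -137 to -132. The bases beside these letters, which a full ROR element needs, were not searched. The Per3 window held the D-box TTATGTAA at -205 to -198 and again at -158 to -151, and the Nr1d1 window held the E-box variant CACGTT, on the minus strand, at -28 to -23. Ciart held CACGTG at -116 to -111, at -58 to -53 and at -44 to -39. Of the members not shown, Cry1 held CACGTG and CACGTT, Nr1d2 and 1 of 3 Clock windows held AGGTCA, and 1 of 2 Arntl windows held AGGTCA at 32 to 37 bases after the start. The Dbp and Npas2 windows held none of the letters searched. Of all 32851 windows of 27025 genes, 7.15% held CACGTG, 4.68% CACGTT, 0.938% TTATGTAA and 16.3% AGGTCA. The D-box palindrome TTACGTAA, in 0.119% of all windows, and the cAMP response element TGACGTCA, in 1.79%, were in none of the members' windows. No 2 of these matches overlapped within a member's window. A match is a description of letters, and these windows do not cover the intronic and distal elements of the clock genes.

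Across the 32 arrays, 36.3% to 69.2% of probes were well above background, with the highest share on C replicate 2 before PH, and the 75th percentile of the processed signal ranged from 209.4 to 778.4. The arrays lay on 5 slides read on 2 scanners. C and MCD before PH shared a slide, as did both Fc-GLP-1 groups before PH and both Fc-GLP-1 groups after PH, so that the diet comparisons between those pairs lie within 1 slide, while C after PH and MCD after PH had a slide each and were read on the other scanner. For every comparison of Fc-GLP-1 with saline, of after with before PH and of MCD with C after PH, slide and group cannot be told apart. Nor can scanner and group for Fc-GLP-1 against saline after PH, or for after against before PH in C and in MCD. C replicate 1 after PH stood apart from its group, with the fatty acid elongase Elovl3 at -3.61 against 4.70 to 5.39 in the other 3 livers, and results whose call or count it changed are given without it too. Hepatocyte markers (7 of 8 listed were tested, Alb and Apoa1 among them) summed to between 10.85 and 12.04 on the log2 scale on all 32 arrays. Before PH the MCD livers lay below the C livers in this sum, without overlap.

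The level of a gene is given as log2 of its processed signal less that of the array's 75th percentile, so that a difference of 1 between livers is a 2-fold change, and levels of different genes cannot be set against each other. Arntl, on chromosome 7 (113178471 to 113314126, GRCm38), separated the groups most widely among the activators. Before PH its level in the C livers was -1.42, -1.10, 0.41 and 0.08, and in the C+Fc-GLP-1 livers 1.87, 2.75, 2.27 and 1.37. In the MCD livers it was -0.07, -1.35, -0.74 and -1.77, and in the M+Fc-GLP-1 livers -2.97, -1.5, -3.23 and -2.36. The 4 C+Fc-GLP-1 livers lay above every other liver taken before PH, and the M+Fc-GLP-1 livers held the lowest values, with 1 of them overlapping the MCD range. After PH the C livers were at 0.47, 1.4, 1.33 and 2.20 and the C+Fc-GLP-1 livers at 1.72, 2.64, 2.23 and 2.60. The MCD livers were then at -0.01, 0.07, -1.94 and -1.56 and the M+Fc-GLP-1 livers at -4.10, -1.36, 0.54 and -2.08. After PH both chow groups therefore lay above the MCD group without overlap, and the M+Fc-GLP-1 group had the widest spread of the 8 groups, with a mean of -1.75 ± 1.92 (SD, n = 4).

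By group mean, Arntl ran from 2.30 in C+Fc-GLP-1 after PH through 2.06 in C+Fc-GLP-1 before PH, 1.35 in C after PH, -0.51 in C before PH, -0.86 in MCD after PH, -0.98 in MCD before PH and -1.75 in M+Fc-GLP-1 after PH to -2.52 in M+Fc-GLP-1 before PH. Only the step from C after PH to C before PH was free of overlap, and 5 of the 7 steps between neighbours were within the pooled SD of the 2 groups. Of the 16 MCD-diet livers, 9 lay below all 16 chow livers, and the median over the 16 was lower by 3.09 than that of the chow livers (-1.53 against 1.56).

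Npas2, the partner of BMAL1 that can stand in for CLOCK, was like Arntl lower by its means on MCD in each diet comparison, at a level near background. It differed from Arntl between M+Fc-GLP-1 and MCD before PH, at 0.93 against -1.53. Its group means ran from -3.74 ± 0.67 in C+Fc-GLP-1 after PH to -6.10 ± 0.47 in MCD before PH (SD, n = 4), and 7 of the 8 arrays on which it was well above background were of chow livers taken after PH or under Fc-GLP-1. None of the 16 MCD-diet arrays measured it above background. In the Fc-GLP-1 livers after PH it was at least 2.02-fold lower on the MCD diet than on chow, as a bound set against the dimmest detected signal of each array. Clock, whose product is the constitutive partner, spanned the narrowest range of the 8 fitted members. Its group means lay between 0.37 ± 0.27 in MCD after PH and 1.35 ± 0.20 in C+Fc-GLP-1 before PH (SD, n = 4), and each of the 7 neighbouring groups in that order overlapped. Its 4 chow group means were all above its 4 MCD-diet group means, with a difference of medians of -0.64 over 16 and 16 livers.

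**Figure D1:**
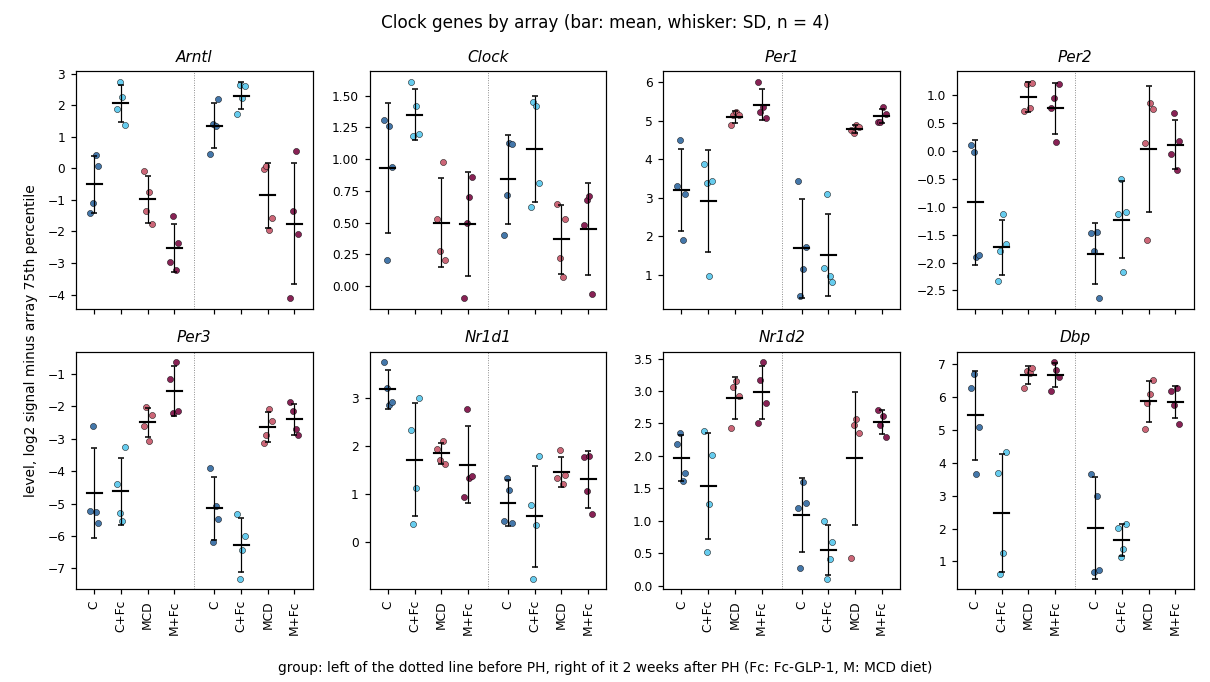
Level of the 8 fitted clock genes on each of 32 arrays (points), with the mean (bar) and SD (whisker) of each group of 4; the vertical axis is log2 signal relative to the 75th percentile of its array, with its own range in each panel. Arntl lay lowest in the M+Fc-GLP-1 livers (-4.10 to 0.54), while Per1 lay at 4.68 to 6.02 in all MCD-diet livers and at 0.45 to 4.5 in all chow livers.

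Per1, whose product represses BMAL1 and CLOCK and whose gene also responds to glucocorticoids and cAMP, separated the diets completely. In the chow livers it read 3.30, 4.5, 1.92 and 3.11 in C before PH and 3.89, 3.38, 0.98 and 3.44 in C+Fc-GLP-1 before PH. After PH these became 3.44, 0.45, 1.16 and 1.73 in C and 1.18, 3.1, 0.98 and 0.83 in C+Fc-GLP-1. The chow livers were thus scattered over more than 4 log2 units, with the lower group means after PH. On the MCD diet the levels were 4.88, 5.16, 5.22 and 5.16 before PH and 4.75, 4.68, 4.90 and 4.84 after PH in the saline livers. In the M+Fc-GLP-1 livers they were 6.02, 5.24, 5.37 and 5.08 before PH and 4.96, 4.98, 5.35 and 5.18 after PH. All 16 MCD-diet livers lay above all 16 chow livers, and the SD of the 4 MCD-diet groups (0.10 to 0.41) was below that of the 4 chow groups (1.06 to 1.32). The second Per1 probe was well above background on 18 of 32 arrays and correlated with the first at 0.16, and with the mean of both probes 7 of the 16 MCD-diet livers lay above all chow livers.

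Per2, the second period gene, was higher on the MCD diet with less separation. Before PH its level was 0.11, -0.02, -1.91 and -1.87 in C and -2.33, -1.80, -1.13 and -1.67 in C+Fc-GLP-1. On the MCD diet it was 0.71, 1.19, 0.76 and 1.21 in MCD and 0.77, 0.94, 0.15 and 1.19 in M+Fc-GLP-1. Every MCD-diet liver before PH lay above every chow liver, and the C livers fell into a pair near 0 and a pair near -1.9. After PH the levels were -1.48, -1.80, -1.46 and -2.63 in C and -1.13, -0.51, -2.17 and -1.10 in C+Fc-GLP-1. They were 0.14, -1.59, 0.85 and 0.74 in MCD and -0.05, 0.68, -0.35 and 0.17 in M+Fc-GLP-1. After PH 1 MCD liver, replicate 2 at -1.59, lay within the chow range and the other 7 MCD-diet livers lay above it.

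Per3, a period gene that is not needed for the loop to run, was well above background on 15 of the 16 MCD-diet arrays and on 2 of the 16 chow arrays, so that it entered the fit only through the groups in which it was high and is left out of the counts of members below, which are over the other 7 fitted members. The MCD-diet levels ran from -3.14 to -0.65, with means of -2.49 ± 0.45 in MCD and -1.54 ± 0.77 in M+Fc-GLP-1 before PH and of -2.64 ± 0.47 and -2.40 ± 0.48 after PH (SD, n = 4). In chow livers the same probe read -7.31 to -2.62, mostly at background. C replicate 2 before PH, the array with the largest share of detected probes, was the exception at -2.62, against -5.24, -5.26 and -5.60 in its group. Cry1, a cryptochrome repressor, read -7.02 to -3.16 over all groups, was above background on 1 array of C+Fc-GLP-1 after PH, and gives no bound on a difference that a result could rest on.

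Nr1d1 did not follow the diet. Its levels were 3.73, 3.20, 2.85 and 2.90 in C before PH, above every other liver but 1 of C+Fc-GLP-1 before PH (2.33, 0.38, 1.13 and 2.99). They were 1.94, 1.71, 2.09 and 1.63 in MCD and 0.93, 2.77, 1.33 and 1.38 in M+Fc-GLP-1 before PH. C before PH was therefore the group with the highest mean, 3.17 ± 0.40 (SD, n = 4), and did not overlap the next group in the order of means, MCD before PH at 1.84 ± 0.21. After PH the levels were 0.43, 1.33, 1.07 and 0.40 in C and 0.77, -0.76, 0.35 and 1.78 in C+Fc-GLP-1. In MCD they were 1.33, 1.92, 1.21 and 1.39 and in M+Fc-GLP-1 1.76, 1.05, 1.79 and 0.58. After PH the 4 groups overlapped, and over all livers the medians of the diets differed by 0.28 (1.51 on MCD, 1.23 on chow).

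Nr1d2, the second REV-ERB gene, was higher on the MCD diet. It read 2.18, 2.36, 1.61 and 1.74 in C and 2.38, 0.52, 1.26 and 2.01 in C+Fc-GLP-1 before PH. The MCD livers read 2.43, 3.06, 3.15 and 2.92 and the M+Fc-GLP-1 livers 2.51, 3.17, 3.44 and 2.81. All 8 MCD-diet livers before PH lay above all 8 chow livers, the closest being 2.43 and 2.38. After PH the levels were 1.20, 0.27, 1.60 and 1.27 in C and 0.99, 0.11, 0.41 and 0.68 in C+Fc-GLP-1. They were 0.43, 2.47, 2.57 and 2.36 in MCD and 2.71, 2.47, 2.61 and 2.29 in M+Fc-GLP-1. Here MCD replicate 1 at 0.43 sat among the chow livers and the other 7 MCD-diet livers above them. The second probe of Nr1d2 correlated with the first at 0.88 over the 32 arrays and gave 1.77 ± 0.12 for that MCD group (SD, n = 4), so that the low value of replicate 1 was on the first probe alone.

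Dbp, a PAR-bZIP factor that the loop drives directly and that carries rhythm to metabolic genes, had the widest range of group means, 5. Before PH its level was 6.28, 6.70, 3.66 and 5.10 in C and 3.69, 0.62, 1.27 and 4.32 in C+Fc-GLP-1. On the MCD diet it was 6.27, 6.78, 6.73 and 6.89 in MCD and 6.18, 7.05, 6.81 and 6.60 in M+Fc-GLP-1. The MCD-diet livers were close together, 2 of the C livers were at their level, and the C+Fc-GLP-1 livers spread from 0.62 to 4.32. After PH the levels were 3.67, 0.69, 3.00 and 0.74 in C and 2.01, 1.13, 1.37 and 2.14 in C+Fc-GLP-1. They were 5.04, 5.81, 6.10 and 6.53 in MCD and 6.18, 5.75, 6.26 and 5.19 in M+Fc-GLP-1. After PH all 8 MCD-diet livers lay above all 8 chow livers. The order of group means ran from 6.67 in MCD before PH and 6.66 in M+Fc-GLP-1 before PH down to 2.02 in C and 1.66 in C+Fc-GLP-1 after PH, and no step between neighbours was free of overlap. The second Dbp probe correlated with the first at 0.98.

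The first question that the design puts to these genes is how the MCD diet and chow differ. On saline before PH, within 1 slide, 4 of these 7 members did not overlap between MCD and C, where 28.4% of all genes fitted did not. Per1 was higher by 1.90 (SE 0.56 of the limma fit, 3.72-fold), Per2 by 1.89 (SE 0.47) and Nr1d2 by 0.91 (SE 0.39), and Nr1d1 was lower by 1.32 (-1.32, SE 0.47). Arntl (-0.47, SE 0.64) and Dbp (1.23, SE 0.68) differed little beside their spread, the C livers being split between a pair with high Dbp and low Arntl and a pair with the reverse. Markers of other cells differed in the same comparison: all 6 mitotic genes tested rose, 6 of 8 macrophage markers rose and 1 fell, and 3 of 7 lymphocyte markers fell (limma, adjusted p under 0.05). Of the hepatocyte markers 1 of 7 fell as well, and their sums were 11.19 to 11.31 in MCD and 11.63 to 11.9 in C. Summed lymphocyte markers were 4.06 to 4.37 in MCD and 6.14 to 7.23 in C, summed macrophage markers 6.28 to 7.65 and 5.54 to 6.24, and summed mitotic genes 1.84 to 3.95 and -0.29 to 0.27 (log2 of summed signal). In whole-liver RNA fewer cells of a type and less RNA per cell cannot be told apart, and the part of these cells in the clock gene differences was not tested.

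Under Fc-GLP-1 before PH, again within 1 slide, 6 of the 7 did not overlap between the M+Fc-GLP-1 and C+Fc-GLP-1 livers, where 15.5% of all genes did not. Arntl was 23.9-fold lower (-4.58, SE 0.64) and Dbp 18.2-fold higher (4.19, SE 0.68). Per1 (2.50, SE 0.56), Per2 (2.49, SE 0.47) and Nr1d2 (1.44, SE 0.39) were higher, and Clock was lower (-0.86, SE 0.27). Per3 was at least 6.14-fold higher, being not well above background on any C+Fc-GLP-1 array. Arntl and Clock thus lay on the opposite side from Per1, Per2, Nr1d2 and Dbp, and Nr1d1 was level (-0.11, SE 0.47). Here 3 of 6 mitotic genes rose, 1 of 8 macrophage markers fell and none of 7 lymphocyte markers passed the test, with summed lymphocyte markers of 4.56 to 5.86 on MCD and 5.36 to 5.97 on chow.

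After PH on saline, across 2 slides of the same scanner, 3 of 7 did not overlap between MCD and C, against 17.2% of all genes. Dbp was 14.4-fold higher (3.84, SE 0.68) and Per1 8.57-fold higher (3.1, SE 0.56), and Arntl was 4.64-fold lower (-2.21, SE 0.64). Per3 was above background on 4 MCD arrays and 1 C array. Without C replicate 1 the differences were 4.39 for Dbp, 3.68 for Per1 and -2.51 for Arntl, and Clock joined them (-0.62), so that 4 of 7 did not overlap. With an array left out this count could only stay or rise, and the share of all genes was not counted without that array. Under Fc-GLP-1 after PH, within 1 slide, 5 of 7 did not overlap, against 16.6% of all genes. Dbp was 18.1-fold higher (4.18, SE 0.68), Per1 12.1-fold (3.60, SE 0.56), Nr1d2 3.92-fold (1.97, SE 0.39), Per2 2.53-fold (1.34, SE 0.47) and Per3 at least 6.80-fold, and Arntl was 16.5-fold lower (-4.05, SE 0.64). In all 4 diet comparisons Arntl and Clock were lower, and Per1, Per2, Per3, Nr1d2 and Dbp higher, on MCD by their means, while Nr1d1 was lower before PH and higher after it under both treatments. Between the diets under Fc-GLP-1 after PH 3 of 7 lymphocyte markers and 2 of 6 mitotic genes fell, and none of either list passed between MCD and C after PH, where 2 lymphocyte markers fell without C replicate 1. These lists' part in the clock gene differences was not tested.

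**Figure D2:**
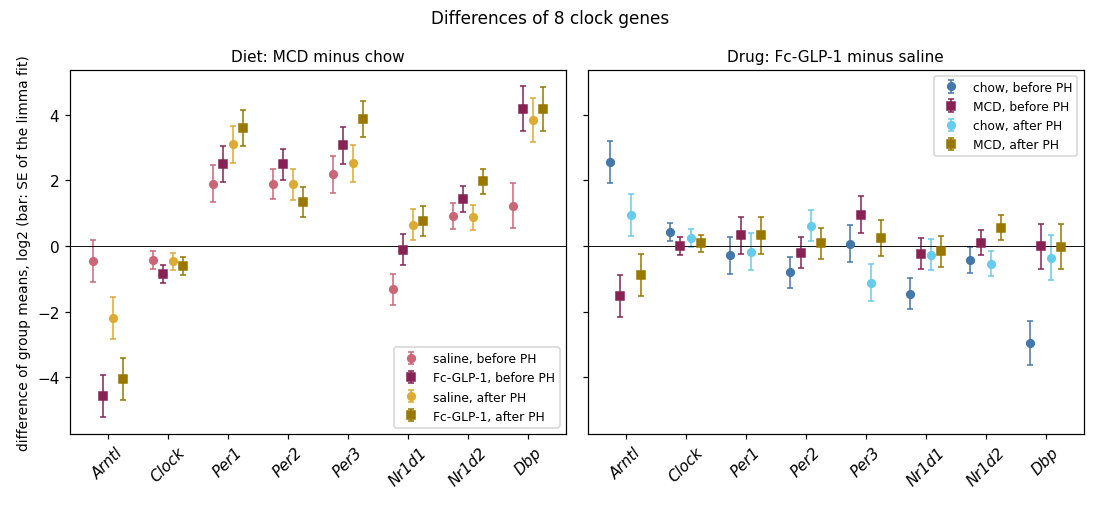
Difference of group means on the log2 scale for the 8 fitted clock genes, with the SE of the limma fit as the bar; the left panel gives MCD minus chow in 4 settings and the right panel Fc-GLP-1 minus saline in 4 settings. Dbp reached 4.19 and Arntl -4.58 between the diets under Fc-GLP-1 before PH, while between drug and saline the 2 genes lay apart on chow before PH (2.57 for Arntl, -2.96 for Dbp).

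Fc-GLP-1 was set against saline on each diet. On chow before PH Arntl was 5.95-fold higher in the drug group (2.57, SE 0.64) and did not overlap. Dbp was lower by mean (-2.96, SE 0.68) with overlap, as was Nr1d1 (-1.46, SE 0.47). The other 5 fitted members differed by -0.80 (Per2) to 0.42 (Clock), all with overlap. Arntl alone made 1 of 7 members without overlap, near the share of all genes, 9.95%. On MCD before PH none of the 7 was free of overlap, against 16.4% of all genes. Arntl differed by -1.53 (SE 0.64), Per3 by 0.95 (SE 0.56) and Dbp by -0.01 (SE 0.68). After PH on chow none was free of overlap, against 10.5%, and on MCD 1 was, against 14.3%, namely Per1 at 0.33 (SE 0.56), which averaging its 2 probes turned to -0.31. Arntl was then at 0.94 (SE 0.64) on chow, 0.65 without C replicate 1, and -0.89 (SE 0.64) on MCD. The difference between the drug effects on the 2 diets before PH, in which an additive difference between slides cancels, was -4.11 (SE 0.91) for Arntl and 2.96 (SE 0.96) for Dbp. It was 1.22 (SE 0.67) for Nr1d1 and between -0.43 and 0.89 for the other 5 fitted members.

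Livers after PH were then set against those before it. In C, 3 of 7 members did not overlap, against 18% of all genes: Arntl was 3.63-fold higher (1.86, SE 0.64), Nr1d1 5.14-fold lower (-2.36, SE 0.47) and Nr1d2 1.85-fold lower (-0.88, SE 0.39). Dbp was lower by mean (-3.41, SE 0.68) and Per1 2.86-fold lower (-1.51, SE 0.56), each with overlap. Without C replicate 1 after PH both ceased to overlap (-3.96 and -2.10), which made 5 of 7, with Arntl at 2.15, Nr1d1 at -2.24 and Nr1d2 at -0.92. Leaving out an array can only keep or raise such a count, and the share of all genes was not counted without that array. Over the same interval 7 of 8 macrophage markers and 5 of 6 mitotic genes rose in C (limma, adjusted p under 0.05), and 2 of 7 hepatocyte markers fell. Without C replicate 1 after PH 6 macrophage markers and 3 mitotic genes rose and no hepatocyte marker passed. Their part in the clock gene differences was not tested. No member was free of overlap in C+Fc-GLP-1 (8.92% of all genes), MCD (19.3%) or M+Fc-GLP-1 (8.96%), and Dbp was lower after PH by 0.80 to 0.82 in these 3 groups (-0.81, -0.80 and -0.82, SE 0.68 each). All comparisons between PH times share the change of slide, and those in C and in MCD also a change of scanner.

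Read across the 32 livers, Arntl and the output gene Dbp ran against each other. Arntl and Dbp correlated at -0.85 (Pearson) and -0.81 (Spearman), Arntl and Per3 at -0.84, and Arntl and Nr1d2 at -0.77, while Arntl and Clock correlated at 0.65. On the other side Nr1d2 and Dbp correlated at 0.88, Per1 and Per3 at 0.87 and Per1 and Dbp at 0.86. These values are descriptions over 32 arrays that share 8 groups and 5 slides. After the group means were taken out, Arntl and Dbp correlated at -0.43 and Nr1d2 and Dbp at 0.71. Within the 16 chow livers Arntl and Dbp correlated at -0.89, and within the 16 MCD-diet livers at -0.23, where Dbp spanned 5.04 to 7.05 against 0.62 to 6.70 on chow. Nr1d1 stood apart from its relatives: it correlated with Arntl at -0.26 and with Dbp at 0.51 over all livers, but at -0.74 and 0.83 within the chow livers and at 0.32 and 0.57 within the MCD-diet livers.

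**Figure D3:**
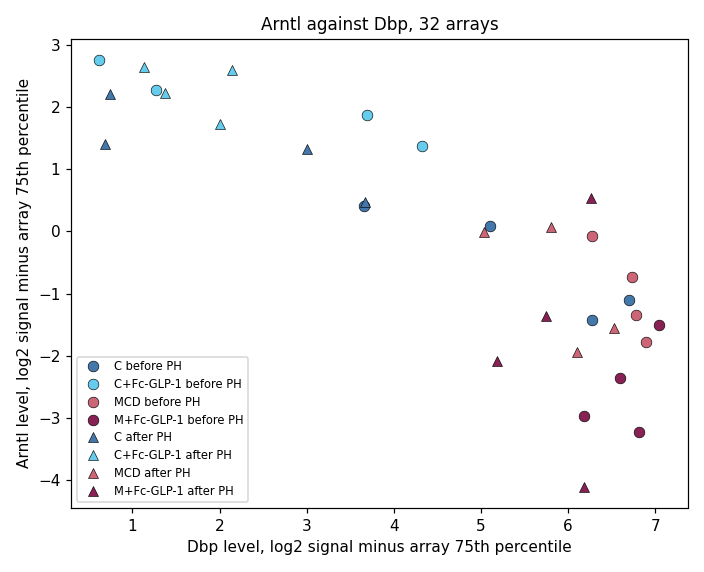
Level of Arntl (vertical) against that of Dbp (horizontal), each as log2 signal relative to the 75th percentile of its array, for 32 arrays; circles are livers before PH, triangles livers after PH, and colours the diet and treatment. Chow livers ran along a slope (r = -0.89, n = 16) and MCD-diet livers gathered at Dbp levels of 5.04 to 7.05.

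C livers before PH lay along the same slope. Replicates 1 and 2 had Arntl at -1.42 and -1.10 and Dbp at 6.28 and 6.70, and replicates 3 and 4 had Arntl at 0.41 and 0.08 and Dbp at 3.66 and 5.10. In the C+Fc-GLP-1 livers before PH, replicates 1 and 4 had Dbp at 3.69 and 4.32 and replicates 2 and 3 at 0.62 and 1.27, with Arntl at 1.87 and 1.37 against 2.75 and 2.27. The replicate numbers stand for separate livers and have no order.

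Outside the members, the genes whose levels ran most like Arntl over the 32 arrays were Asap2 (r = 0.88), Loxl4, Nid2 and Chka (0.87 each) and Ube2u (0.86). Those that ran most against it were Por (-0.92), Cln6 (-0.91), Tef (-0.90), 2310081J21Rik (-0.87) and Rhbdd2 (-0.86). Loxl4 and Nid2 were also among the 5 genes that ran most against Dbp (-0.93 and -0.91), with 1700010I14Rik (-0.92), Lgalsl and AK038006 (-0.91 each). Most like Dbp were Tef and Ciart (0.91 each), Por (0.89), Pcsk4 (0.87) and Cln6 (0.86), so that Por, Cln6 and Tef stood at opposite ends for the 2 genes. For the other fitted members the 2 most alike were Mfsd2a and Trim24 for Per1 (0.91 each), Usp2 (0.86) and Wipf3 (0.85) for Per2, 2310034O05Rik (0.91) and 4930506C21Rik (0.90) for Per3, Pde6c and Tef for Nr1d2 (0.85 each), Zbtb48 (0.75) and C730027H18Rik (0.74) for Nr1d1, and Tfpi2 and Prkra for Clock (0.85 each). Each value is over 32 arrays that share 8 groups, and Nr1d1 had the lowest highest value of the fitted members. Some of these genes were near background in part of the groups. AK038006 was not well above background on any MCD-diet array, nor Ube2u on any M+Fc-GLP-1 array before PH. 2310034O05Rik was so on only 1 or 2 of 4 arrays in each chow group.

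Further genes of the loop, a list of 16 that all entered the fit, were tested across all 21012 genes with limma and Benjamini-Hochberg adjustment. Under Fc-GLP-1 before PH, M+Fc-GLP-1 against C+Fc-GLP-1, 6 of the 16 rose and 1 fell, where 10.4% of all genes were called, and after PH 5 rose and 2 fell (12.8%). On saline, MCD against C, 3 rose and 1 fell both before PH (26.4% of all genes) and after it (12.1%), and without C replicate 1 after PH 4 rose and 1 fell. The list's median difference in these 4 comparisons was 0.46, 0.50, 0.26 and 0.50, beside 0.03, -0.01, -0.13 and -0.03 over all genes. These genes were chosen with earlier results of these livers known. The counts between the diets include calls of Ciart and Bhlhe41, which entered the fit only through MCD-diet groups, so those calls are a description.

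Ciart, the repressor with 3 E-boxes in its promoter window, rose most. Its level was -0.37 to 0.19 in MCD and -0.35 to 0.38 in M+Fc-GLP-1 before PH and -1.64 to 0.66 and -1.20 to 0.99 after PH. In chow livers it was -5.27 to -1.69 in C before PH, above background on 3 of the 4 arrays, and not well above background on any array of the other 3 chow groups. All MCD-diet livers thus lay above all chow livers. Like Per3, Ciart entered the fit only through MCD-diet groups, in which it was high, so its differences between the diets are given without a p-value. It was at least 46.2-fold higher under Fc-GLP-1 after PH, at least 23.4-fold before PH and at least 18.0-fold on saline after PH. On saline before PH it was 3.36 higher on the log2 scale (SE 0.60).

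Between the diets, the calls of the relatives of Dbp were in the direction that Dbp had by its means. Tef rose under Fc-GLP-1 by 2.98 before PH (SE 0.36, adjusted p = 1.77e-06, limma) and by 2.35 after PH (4.89e-05), and on saline after PH by 1.84 (0.0011). Hlf rose under Fc-GLP-1 by 1.70 (0.000184) and 1.92 (3.36e-05). On saline before PH the Hlf mean was lower in MCD (2.45) than in C (2.74), unlike that of Dbp. Hlf was also the gene of this list that differed between M+Fc-GLP-1 and MCD, by 1.12 before PH (0.0191) and 1.05 after PH (0.0277), calls that several alternatives ended. Dbp differed there by -0.01 and -0.02. Nfil3, the repressor that opposes DBP at D-boxes, fell on the MCD diet by 2.16 and 2.18 under Fc-GLP-1 (-2.16, adjusted p = 0.000408, and -2.18, 0.000271, limma). Its falls on saline were smaller (-1.06 before PH, adjusted p = 0.0435, and -1.25 after PH, 0.0328) and lost the call when single arrays were left out, while without C replicate 1 the latter was -1.66 (0.00279). Cry2, the second cryptochrome, rose in 3 of the 4 diet comparisons, by 0.83 to 1.32, and Bhlhe41, which encodes a repressor that competes at E-boxes, in 2 of them. Rora, Csnk1d, Csnk1e and Gsk3b passed the test in no comparison, and Timeless, Btrc and Nono each did in 1 or 2.

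**Figure D4:**
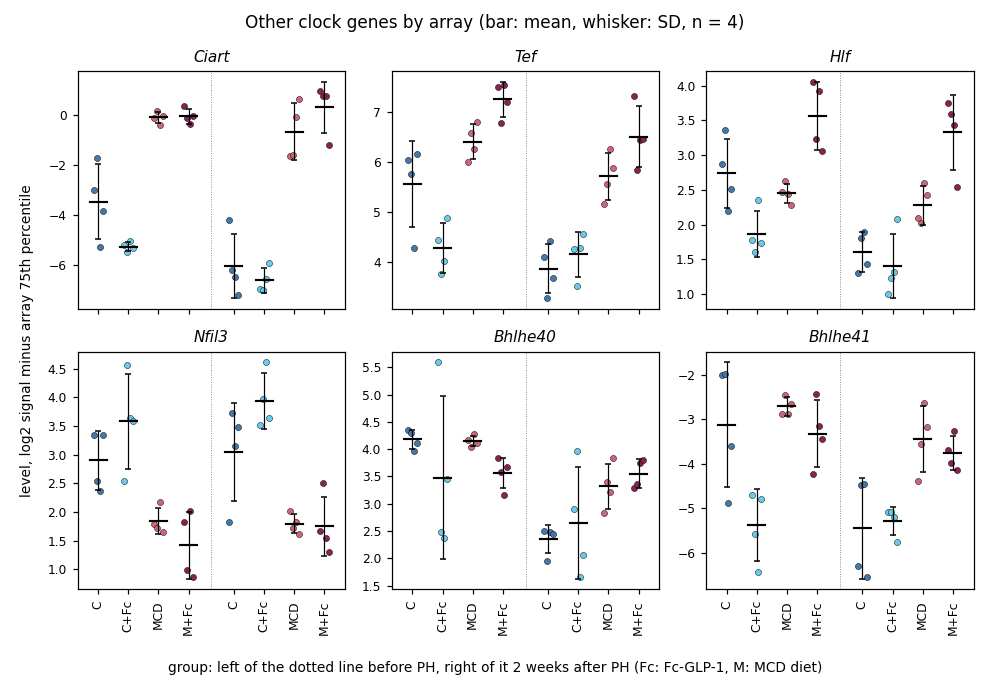
Level of 6 further clock genes, outside the members, on each of 32 arrays (points), with the mean (bar) and SD (whisker) of each group of 4; the vertical axis is log2 signal relative to the 75th percentile of its array, with its own range in each panel. Ciart lay between -1.64 and 0.99 in all MCD-diet livers and at or below -1.69 in all chow livers, and Nfil3 lay at 0.86 to 2.50 in all MCD-diet livers.

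Between Fc-GLP-1 and saline, 1 of the 16 fell on chow before PH, where 2.09% of all genes were called. This was Bhlhe41, not well above background on any C+Fc-GLP-1 array and at least 2.66-fold lower (adjusted p = 0.0262, limma). None passed on chow after PH in limma (2.08% of all genes, with 3 of the 16 at an unadjusted p under 0.05), and 1 rose on MCD both before (7.21%) and after PH (6.5%), Hlf in each. Between PH times in C, 5 fell and none rose (14% of all genes, 2942 calls, or 1527 without C replicate 1 after PH): Bhlhe40 by 1.83 (-1.83, adjusted p = 0.00821), Hlf by 1.13 (-1.13, 0.00976), Tef by 1.68 (-1.68, 0.00295), and Ciart and Bhlhe41 to levels at background, at least 2.61-fold lower (0.00523) and at least 3.32-fold lower (0.00474). Without C replicate 1 after PH the count was again 5, and fitting only the 2 groups compared left 1, Bhlhe40. With normexp Ciart (-0.65, adjusted p = 0.196, limma) and Tef (-0.85, 0.14) did not pass. In limma none passed in C+Fc-GLP-1 (0.838% of all genes) or MCD (9.46%), with 1 and 0 at an unadjusted p under 0.05, and 1, Nono, fell in M+Fc-GLP-1 (1.71%).

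The difference between the drug effects on the 2 diets before PH passed the test for 2 of the 16 genes and for 6.14% of all genes. Hlf was 1.99 (SE 0.41, adjusted p = 0.00689, limma) and Tef 2.13 (SE 0.51, 0.0171). For Tef the means were 5.55 in C, 4.28 in C+Fc-GLP-1, 6.4 in MCD and 7.25 in M+Fc-GLP-1, and for Hlf 2.74, 1.87, 2.45 and 3.57. Both were thus lower with the drug on chow and higher with it on MCD by their means, as Dbp was lower on chow.

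Of 20 liver genes known as rhythmic outputs of the clock, 8 rose and 3 fell in M+Fc-GLP-1 against C+Fc-GLP-1 before PH and 10 rose and 4 fell after PH. In MCD against C, 8 rose and 1 fell before PH, and 8 rose and 4 fell after it (7 and 4 without C replicate 1). Their median difference was 1.08, 1.18, 0.44 and 0.64 in these comparisons, in that order. Over all genes 10.4%, 12.8%, 26.4% and 12.1% were called, with medians of 0.03, -0.01, -0.13 and -0.03. Usp2, a ubiquitin-specific protease, rose by 5.41 and 4.28 under Fc-GLP-1 (adjusted p = 1.27e-06 and 3.79e-05, limma) and by 2.96 and 3.09 on saline (0.00137 and 0.00197), and Wee1, the kinase that holds back mitotic entry, by 3.18 under Fc-GLP-1 before PH (6.6e-06). Por, the electron donor of the cytochrome P450 enzymes, rose in all 4, by 0.82 to 2.51. Alas1, the first enzyme of haem synthesis, was called in 3, but its call on saline after PH (1.41, adjusted p = 0.0349, limma) ended on dropping any 1 of 7 of the 8 arrays, C replicate 1 among them (1.36, 0.0591), and its call under Fc-GLP-1 before PH ended with the authors' values, normexp and the array median. Elovl3, a fatty acid elongase with a strong daily rhythm in male liver, was lower in all 4. Under Fc-GLP-1 before PH it was at 4.16 to 5.31 on chow and at -3.97 to -1.87 on MCD, where 1 of 4 arrays was above background (adjusted p = 7.24e-05, limma). On saline before PH, with all 8 arrays above background, it fell by 6 (-6, 0.000375). On saline after PH the MCD livers were at -4.51 to -3.14, with 2 of 4 arrays above background, and the difference was -6.68 with C replicate 1 and -8.84 without it.

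None of the 20 differed between C+Fc-GLP-1 and C at either time (limma, adjusted p under 0.05), where 2.09% of all genes were called before PH and 2.08% after it. Of the 20, 8 before PH and 4 after it had an unadjusted p under 0.05. On MCD 1 of the 20 rose with the drug at each time, no more than the share of all genes called (7.21% before PH, 6.5% after it). These were Lpin1 before PH by 1.75 (adjusted p = 0.00475, limma) and Upp2 after PH by 1.95 (0.021). After against before PH, 4 fell in C, 2 in C+Fc-GLP-1, 2 in MCD and 1 in M+Fc-GLP-1, and none rose. Of all genes 14%, 0.838%, 9.46% and 1.71% were called there, in that order. Without C replicate 1 after PH, 4 fell in C and 1 rose, Lonrf3 (1.42, adjusted p = 0.0333, limma), which was at 1.14 (0.052) with it. Rgs16, a regulator of G protein signalling that responds to fasting and the clock, fell in 3 of these 4, by 5.30 in C (-5.30, adjusted p = 1.32e-06), 4.27 in C+Fc-GLP-1 (-4.27, 0.000135) and 2.35 in MCD (-2.35, 0.0047).

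Another list held 16 genes that respond to cues known to set the liver clock, of which 14 were tested and Hspa1b and Pck1 were not. In M+Fc-GLP-1 against C+Fc-GLP-1, 6 rose and 5 fell before PH and 6 rose and 4 fell after it. In MCD against C, 4 rose and 3 fell before PH and 4 rose and 2 fell after it (4 and 1 without C replicate 1). The median difference was -0.19, 0.07, -0.23 and 0.36, beside 0.03, -0.01, -0.13 and -0.03 over all genes, of which 10.4%, 12.8%, 26.4% and 12.1% were called. Fkbp5, a glucocorticoid-induced chaperone, rose in all 4, by 3.15 and 3.06 under Fc-GLP-1 (adjusted p = 2.08e-08 and 4.1e-08, limma) and by 1.90 and 2.48 on saline (2.45e-05 and 1.11e-06). Sgk1, a kinase that glucocorticoids also induce, rose in all 4 by 0.94 to 1.80, while Tsc22d3, a further glucocorticoid target, rose in none of them. The cold-inducible RNA-binding proteins Cirbp and Rbm3 rose under Fc-GLP-1 by 1.64 and 1.32 before PH and 2.22 and 1.92 after PH, although for Rbm3 the mean of its probes ended 3 of its 4 calls. Among heat shock genes Hspa1a fell by 2.94 under Fc-GLP-1 before PH (-2.94, adjusted p = 0.000593, limma). On saline before PH it was at -2.12 (0.00524), but at -0.98 (0.0702) with the authors' values and -1.01 (0.0551) with normexp. Srebf1, which follows feeding and insulin, fell in all 4 comparisons, by 1.17 to 1.69 (-1.17 to -1.69).

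Against saline, none of the 14 passed in limma with Fc-GLP-1 on chow before PH (2.09% of all genes, with 4 of the 14 at an unadjusted p under 0.05). On chow after PH (2.08% of all genes) Tsc22d3 rose (1.19, adjusted p = 0.0366, limma), a call that no longer passed without C replicate 1. With the drug on MCD 7.21% of all genes were called before PH and 6.5% after it. On MCD before PH, Ppargc1a, a coactivator induced by fasting, rose (1.68, adjusted p = 0.00734, limma). Fkbp5 before PH (0.93, 0.0479) and Cirbp after it (1.22, 0.0179) passed as well, but with the authors' values Fkbp5 was at 0.16 (0.771) and Cirbp at 0.91 (0.141), and both calls also ended with normexp, with the array median and when single arrays were left out. After against before PH, 4 fell in C (14% of all genes), among them Hspa1a (-2.36, adjusted p = 0.00505, limma), and without C replicate 1 the count was 2. In limma none passed in either Fc-GLP-1 group, where 0.838% of all genes were called on chow and 1.71% on MCD. Of the list, 6 on chow and 3 on MCD were at an unadjusted p under 0.05. In each list the genes named with values were those with the largest called changes, and Por, Lpin1, Upp2, Cry2, Sgk1, Srebf1, Ppargc1a, Lonrf3, Tsc22d3, Nono, Timeless and Btrc were named after their values were seen.

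The remaining marker lists give the other cells in the livers on which these clock genes were measured. Endothelial markers passed in at most 1 of 8 per comparison. Of 7 stellate cell markers tested, 2 rose in MCD against C before PH and 2 fell after PH, and between the diets under Fc-GLP-1 1 fell before PH and none after it. Summed stellate markers reached 6.21 in C after PH, where the lowest array was at 3.90. Between Fc-GLP-1 and saline on MCD before PH, 4 of 8 macrophage markers fell, where 7.21% of all genes were called. None of the 7 clock genes counted was free of overlap there, against 16.4% of all genes. The count of clock genes rose with the authors' values and with normexp, for which the share of all genes without overlap is not given. The part of these cells in the clock gene levels was not tested.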

How the data were processed

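RNA of 32 mouse livers, 4 separate livers in each of 8 groups, had been hybridised by the authors to one-colour Agilent SurePrint G3 mouse arrays read with Feature Extraction 10.7.3.1. The deposited scanner files give a processed signal intensity for each of 62976 spots per array, background-subtracted by that software, and the values used are this column. The authors' normalized table holds log2 values of the same 32 arrays, deposited per probe, made with limma per the submitters' processing notes, and was used only as an alternative.

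Each array's log2 intensity was centred on its 75th percentile, and probes with all spots flagged on an array (426) were dropped. A probe was kept if in some group all 4 arrays called it well above background (28937 probes), and each gene was read from its probe with the highest mean, which left 21012 genes. All groups entered 1 limma fit (limma 3.58.1 in R 4.3.3; figures and promoter searches in Python 3.11.15) with Benjamini-Hochberg adjustment at 0.05, without a slide or replicate term. The scripts were tested on simulated data. Counts of genes whose groups do not overlap compare the lowest array of a group with the highest of the other.

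The members and gene lists were chosen with earlier results of these data known. Named outside the members were, per list, at most 6 called genes with the largest change among those whose groups did not overlap, and, by Pearson correlation over the 32 arrays, the 5 highest and 5 lowest for Arntl and Dbp and the 2 highest for each other member. Alternatives were another background correction with quantile normalization (normexp, offset 50), the array median, a percentile over probes detected on all arrays, the authors' values, no filter, the mean of a gene's probes, slide or replicate number as a block, the number within diet and treatment as a block (added after the data were seen), a fit of only the groups compared, and each array left out. The number of arrays limits the precision. Some genes of the lists are counted but not reported here by name.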

Additional observations from a re-analysis of the deposited data

Results flagged for a closer look

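In 5 of 80 groups of 4 arrays (10 clock genes in 8 groups), 1 array lay so far from the other 3 that Dixon's ratio of gap to range was above its tabulated critical value, where chance gives about 1 group in 20. Per1 was at 3.1 in C+Fc-GLP-1 replicate 2 after PH against 0.83 to 1.18 in its group. Per3 was at -2.62 in C replicate 2 before PH, the array with the largest share of probes above background (69.2%), against -5.60 to -5.24. Nr1d2 was at 0.43 in MCD replicate 1 after PH against 2.36 to 2.57. Npas2 was at -5.50 in C+Fc-GLP-1 replicate 1 before PH against -3.40 to -3.27, and at -5.75 in C replicate 1 after PH against -3.83 to -3.67, both near background.

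The effect of Fc-GLP-1 before PH differed between the diets, by the interaction term of the limma fit, for 4 genes of the lists. The difference was 1.99 for Hlf (SE 0.41, adjusted p = 0.00689), 2.13 for Tef (SE 0.51, adjusted p = 0.0171), 1.69 for Por (SE 0.38, adjusted p = 0.0122) and 1.65 for Pnpla2 (SE 0.44, adjusted p = 0.0275), each higher with the drug on MCD relative to chow.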

How the results depend on the processing

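Of 792 recomputed differences of the clock genes, 771 moved by less than the spread between replicates and 20 by more. The sign changed for 1 (Per1, M+Fc-GLP-1 against MCD after PH, -0.31 with the mean of its probes). Many of the 771 could not move. With groups of equal size, a block or a fit of only the groups compared returns the same difference. Leaving out the filter read the same probes, and a mean over probes changes nothing for members with 1 probe. With 1 array left out none of 768 moved beyond that spread, but dropping 1 of 4 arrays could not move these group means that far. Of the tested genes named from the lists, 1825 of 1926 values kept their side of the threshold, 71 lost the call and 30 gained it, and with 1 array left out 1916 of 2016 kept it, 85 lost it and 15 gained it. Counts below follow the order clock genes not overlapping (of 8, Per3 included), other clock genes, rhythmic output genes, systemic cue genes. The cause of each change was not tested. Per3 entered the fit only through groups in which it was high, so these clock gene counts cannot be set against those in the Results, which leave it out. The share of all genes without overlap is not given for these settings, so the clock gene counts have no background there.

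With the authors' values, C+Fc-GLP-1 against C before PH gave 2, 4, 1 and 4 (reported 1, 1, 0 and 0), M+Fc-GLP-1 against MCD before PH gave 3 clock, 3 rhythmic and 1 cue gene (0, 1 and 2), and after PH 0 clock and 2 rhythmic genes (1 and 1). There C+Fc-GLP-1 against C after PH gave 0 cue genes (1) and the interaction 1 other clock gene (2). With normexp the same 4 counts before PH were 2, 4, 1 and 4, M+Fc-GLP-1 against MCD gave 2 clock, 3 rhythmic and 1 cue gene before PH and 0 clock and 0 other clock genes after it, C+Fc-GLP-1 against C after PH 0 cue genes, the interaction 1, and after against before PH 2 cue genes in C (4), 1 clock and 1 cue gene in C+Fc-GLP-1 (0 and 0) and 1 cue gene in M+Fc-GLP-1 (0). Centred on the median, MCD after against before PH gave 4 clock genes (0), M+Fc-GLP-1 against C+Fc-GLP-1 before PH 7 rhythmic genes (11), C+Fc-GLP-1 against C 1 rhythmic and 1 cue gene before PH and 0 cue genes after it, M+Fc-GLP-1 against MCD 0 other clock and 1 cue gene before PH and 0 clock and 0 cue genes after it, after against before PH in C 2 cue genes, and in M+Fc-GLP-1 0 other clock and 0 rhythmic genes (1 and 1). With the mean of a gene's probes, MCD against C after PH gave 7 other clock genes (4), M+Fc-GLP-1 against MCD after PH 0, 2 and 3 of the first 3 lists, and after against before PH 2 clock genes in MCD and 1, 0 and 0 in M+Fc-GLP-1. With the percentile over probes detected on all arrays, M+Fc-GLP-1 against MCD gave 0 clock genes after PH and 1 cue gene before it, and M+Fc-GLP-1 after against before PH 0 other clock and 0 rhythmic genes.

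Fitting only the groups compared gave 0 other clock genes for C+Fc-GLP-1 against C before PH and 0 cue genes after it, 2 other clock genes for MCD against C after PH, 2 rhythmic genes before PH and 0 cue genes after it for M+Fc-GLP-1 against MCD, and, after against before PH, 1 other clock (5), 2 rhythmic and 1 cue gene in C, 1 rhythmic gene in C+Fc-GLP-1, 1 other clock gene in MCD, and 0 other clock and 0 rhythmic genes in M+Fc-GLP-1. Without the filter, MCD against C before PH gave 2 other clock genes (4), M+Fc-GLP-1 against MCD 5 rhythmic genes before PH (1) and 0 other clock genes after it, C+Fc-GLP-1 against C after PH 0 cue genes, and after against before PH 2 rhythmic genes in C and 0 other clock genes in M+Fc-GLP-1. Slide as a block left the values within a slide as they were, which it had to, since each slide held whole groups and the fit is then the same.

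No source says that a replicate number marks 1 mouse. The residuals of arrays of the same number correlated at 0.0173 on average over 112 pairs (-0.221 to 0.517), against -0.00529 over 336 other pairs, and 18 of 32 arrays correlated best with an array of their own number. Between the PH times of a diet and treatment, the 16 pairs of the same number correlated at -0.047 to 0.0883, and 3 of 16 arrays before PH correlated best with their own number. With the replicate block, C+Fc-GLP-1 against C after PH gave 1 rhythmic gene (0), M+Fc-GLP-1 against MCD before PH 2 rhythmic genes (1) and 1 cue gene (2), and 5625 genes were called between MCD and C before PH (5557). With the number within diet and treatment as a replicate block, chosen after seeing the data, after against before PH gave 2 rhythmic genes in C (4), 0 cue genes in MCD (1) and 0 other clock genes in M+Fc-GLP-1 (1), and over all genes 2493 calls in C (2942), 51 in C+Fc-GLP-1 (176), 1657 in MCD and 262 in M+Fc-GLP-1 (360).

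With 1 array left out at a time, the number of clock genes not overlapping, Per3 included, was 0 to 1 for C+Fc-GLP-1 against C after PH, 1 to 2 for C+Fc-GLP-1 against C before PH, 6 to 7 for M+Fc-GLP-1 against C+Fc-GLP-1 after PH, 0 to 2 for M+Fc-GLP-1 against MCD before PH, 4 to 5 for MCD against C after PH, 4 to 5 for MCD against C before PH, 3 to 5 for after against before PH in C, 0 to 2 for after against before PH in C+Fc-GLP-1, 0 to 2 for after against before PH in M+Fc-GLP-1 and 0 to 3 for after against before PH in MCD. These counts could stay or rise but not fall, since leaving out an array never widens the range of a group. They include Per3, which the counts in the Results leave out, and the matching share of all genes is not given. The number of other clock genes called was 0 to 3 for C+Fc-GLP-1 against C before PH, 5 to 7 for M+Fc-GLP-1 against C+Fc-GLP-1 after PH, 6 to 7 for M+Fc-GLP-1 against C+Fc-GLP-1 before PH, 0 to 1 for M+Fc-GLP-1 against MCD after PH, 0 to 1 for M+Fc-GLP-1 against MCD before PH, 2 to 5 for MCD against C after PH, 2 to 4 for MCD against C before PH, 5 to 7 for after against before PH in C and 0 to 1 for after against before PH in M+Fc-GLP-1. The number of rhythmic output genes called was 0 to 2 for C+Fc-GLP-1 against C after PH, 12 to 14 for M+Fc-GLP-1 against C+Fc-GLP-1 after PH, 8 to 11 for M+Fc-GLP-1 against C+Fc-GLP-1 before PH, 0 to 2 for M+Fc-GLP-1 against MCD after PH, 1 to 4 for M+Fc-GLP-1 against MCD before PH, 8 to 11 for MCD against C after PH, 5 to 9 for MCD against C before PH, 1 to 5 for after against before PH in C, 1 to 3 for after against before PH in C+Fc-GLP-1, 0 to 1 for after against before PH in M+Fc-GLP-1 and 1 to 3 for after against before PH in MCD. The number of systemic cue genes called was 0 to 1 for C+Fc-GLP-1 against C after PH, 9 to 10 for M+Fc-GLP-1 against C+Fc-GLP-1 after PH, 6 to 10 for M+Fc-GLP-1 against C+Fc-GLP-1 before PH, 0 to 1 for M+Fc-GLP-1 against MCD after PH, 1 to 2 for M+Fc-GLP-1 against MCD before PH, 4 to 6 for MCD against C after PH, 5 to 7 for MCD against C before PH, 2 to 4 for after against before PH in C, 0 to 1 for after against before PH in C+Fc-GLP-1, 0 to 1 for after against before PH in M+Fc-GLP-1 and 0 to 1 for after against before PH in MCD.

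Over all genes, C+Fc-GLP-1 against C before PH gave 439 calls, 2119 with the authors' values, 2461 with normexp, 1031 centred on the median and 48 with only the groups compared, and after PH 436, against 196, 149, 211 without the filter and 88 with only the groups compared. M+Fc-GLP-1 against MCD before PH gave 1516, 6722 without the filter and 2592 with normexp, and after PH 1365, 767 without the filter and 827 with only the groups compared. M+Fc-GLP-1 against C+Fc-GLP-1 before PH gave 2175, and 1257 with the authors' values, 1437 with normexp and 1361 with only the groups compared, and MCD against C after PH 2548, 1605 with only the groups compared. After against before PH gave 2942 in C, 1166 with only the groups compared and 1527 without C replicate 1 after PH, 176 in C+Fc-GLP-1, 1342 with normexp, 705 without the filter and 53 with only the groups compared, and 360 in M+Fc-GLP-1, 605 with normexp, 918 without the filter and 98 with only the groups compared. Centring on the median moved the median of all genes by up to 0.37 and the share of calls that were higher from 41.4% to 76.9% for MCD against C before PH. The authors' values were not used between PH times, where they shifted the median of all genes by 0.48 to 0.61. Signal over background limits Npas2, Cry1 and, on chow, Per3 and Ciart.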
